A study of Mus musculus with 15 samples.

Results

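Voltage-gated calcium and sodium channels open when a membrane depolarizes, and their subunits set where and how neurons fire, release transmitter and admit calcium. Their transcripts were followed in the cerebellum (Ce) and the striatum (St) of mice from a line bred for running on wheels by choice (Hi) and from a control line (Co). The genes were chosen by symbol alone, as the calcium channel families Cacna1, Cacna2d, Cacnb and Cacng and the sodium channel genes numbered Scn1 to Scn11 with the ending a or b. The symbol table held 39 such genes among 26628, of which 26 encode calcium and 13 sodium channel subunits. Those with a value of at least 1, when scaled to 1e+06 per sample (CPM), in at least 3 samples were tested, which left 33 members (23 calcium, 10 sodium) among 15213 genes. Scn2a, listed under its older symbol Scn2a1, was not taken by this rule, and its values are given only where they complete a family.

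RNA-seq samples of whole dissected Ce and St came from male mice of 1 selected line and 1 control line of an Hsd:ICR outbred background, about 6 weeks old, housed singly with a running wheel for 7 days. The groups were CeCo (4 samples), CeHi (4), StCo (4) and StHi (3, after the authors removed 1 sample). Replicates are numbered from 0 as in the labels, and values by sample are listed in that order. Each line is a single population, so line cannot be told apart from other differences between these 2 populations, such as drift. Line directions follow the labels as deposited. Which line is which could not be checked from the values and is in doubt, and if the line labels were exchanged every Hi minus Co direction given below would turn. The deposited values are fragment counts divided by 1 factor per sample, called normalized counts below. The samples totalled 38499264 to 43669012 normalized counts (32909302 to 47485550 fragments), and 1 fragment was worth 0.841 to 1.30 normalized counts. Region labels matched their defining markers: the summed cerebellar granule cell markers lay at 223714 to 276512 in Ce and 1631 to 3352 in St, and those of striatal medium spiny neurons at 14466 to 16602 in Ce and 211995 to 292929 in St. Markers of choroid plexus varied widely among the Ce samples of both lines, from 1017 to 115889. The St samples also held cortical projection neuron RNA, since Tbr1 lay at 1857 to 4697 normalized counts there against 28.6 to 45.4 in Ce, with the lowest St value in StHi replicate 1. The list of 4 such markers, none of them at 0, summed to 17219 to 48772 in St and 24350 to 30632 in Ce, where Slc17a7, also a granule cell gene, made up most of it. Neurod6 lay at 597 to 2384 in St and 129 to 175 in Ce, and the part of cortical RNA in the differences below was not tested. Within St, 3 marker sums were higher in StHi without overlap. They were those of oligodendrocytes (175136 to 256819 in StCo and 267664 to 307421 in StHi), thalamic neurons (2316 to 3449 and 3585 to 3963) and blood (599 to 1075 and 1202 to 1407, 3 of 4 symbols found). Of the thalamic genes only Slc17a6 was higher in StHi without overlap, at 551 to 1202 in StCo and 1794 to 2284 in StHi. Prkcd, Lef1 and Rora overlapped between the lines. The sums of the other cell types listed overlapped between the lines in St. The part of these cells in the St line differences was not tested. In whole tissue, fewer cells of a type and less RNA per cell cannot be told apart.

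In a calcium channel the α1 subunit forms the pore, whereas the β subunit inside the cell and the α2δ subunit outside it carry the pore to the membrane and tune its gating. The γ proteins are named for a subunit of the muscle channel, but several in brain are better known as partners of AMPA-type glutamate receptors. A sodium channel has a large α subunit that forms the pore and smaller β subunits that alter gating and bind other surface proteins. Purkinje cells of the cerebellum rely on P/Q-type calcium current and on resurgent sodium current, and medium spiny neurons are the main output neurons of the striatum.

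Start regions are shown for Scn9a and Cacna2d3, 2 of the members with large region effects, both higher in St, and for Cacng7 and Scn2b, both higher in Ce and each next to a gene that was higher in St. Windows of 250 bases before a RefSeq start (GRCm38.p6) were at hand for 29 of the 39 members, 39 windows in all. Of the members named here, those with the largest region effects (Scn3b, Cacna1h, Scn3a, Cacng3 and Scn4b) had no window or under 100 bases ahead of an annotated exon, and windows inside the GENCODE gene, as for Cacnb1, Cacnb3 and Cacng8, are not printed. The bases are written 5′ to 3′ along the gene. Capitals mark the GC box (GGGCGG, either strand), the letters bound by Sp1-type factors. The windows are chr2:66634963-66635212 for Scn9a on the minus strand, chr14:29721865-29722114 for Cacna2d3 on the minus strand, chr7:3332575-3332824 for Cacng7 on the plus strand and chr9:45117626-45117781 for Scn2b on the plus strand.
Scn9a: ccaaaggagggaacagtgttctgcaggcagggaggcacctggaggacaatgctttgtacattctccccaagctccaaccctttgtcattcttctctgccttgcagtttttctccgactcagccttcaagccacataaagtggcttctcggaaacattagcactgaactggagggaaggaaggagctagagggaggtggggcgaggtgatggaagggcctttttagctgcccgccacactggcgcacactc
Cacna2d3: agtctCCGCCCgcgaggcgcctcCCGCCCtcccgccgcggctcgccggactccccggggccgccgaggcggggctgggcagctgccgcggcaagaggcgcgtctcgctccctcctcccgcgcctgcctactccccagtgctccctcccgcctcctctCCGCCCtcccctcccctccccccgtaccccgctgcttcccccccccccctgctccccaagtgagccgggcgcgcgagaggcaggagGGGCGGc
Cacng7: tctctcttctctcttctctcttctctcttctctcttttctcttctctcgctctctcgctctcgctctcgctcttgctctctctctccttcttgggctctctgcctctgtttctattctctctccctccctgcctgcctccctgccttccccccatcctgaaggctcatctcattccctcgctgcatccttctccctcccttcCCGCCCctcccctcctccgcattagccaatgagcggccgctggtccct
Scn2b: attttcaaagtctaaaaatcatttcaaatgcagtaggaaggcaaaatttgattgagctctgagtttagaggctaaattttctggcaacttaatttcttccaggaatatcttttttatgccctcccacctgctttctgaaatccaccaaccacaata
The printed stretch of Cacna2d3 held 4 GC boxes and 30 CG pairs, and that of Cacng7 1 GC box and 9 CG pairs. Those of Scn9a and Scn2b had no GC box, with 5 and 0 CG pairs. Over the whole 250-base windows, some of which lie inside a gene, a GC box was found in 15 of the 39 members' windows, 38.5%, against 32.7% of 32851 windows of all genes. The CRE letters TGACGTCA were in 0 of the 39 windows and 1.55% of all, and the TATA box letters TATAAA, which overlap neither other motif, in 1 of the 39 and 12.4% of all. The 250-base windows of the members held a median of 8 CG pairs, and those of all genes 6. A match is a match of letters and not a shown binding site.

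Most members differed between the regions. Of the 33 tested, 30 had a region effect at a false discovery rate (FDR) adjusted P-value under 0.05 in limma, 11 higher in Ce and 19 higher in St, and among all genes 80.2% had one (40.6% higher in Ce and 39.6% higher in St), so that a call by itself is common. The size of the effects was larger: the region difference was over 1 on the log2 scale, with an adjusted P-value under 0.05, for 17 of the 33 members and for 24.1% of all genes. The median size of the log2 difference was 1.05 over the members and 0.44 over all genes. The lowest sample of one region lay above the highest of the other for 24 of the 33 members, and for 55.2% of all genes. Effects are given as Ce minus St, on the log2 scale of the normalized count plus 1, with the standard error of the model. The plot of region effects by family shows that each family split: all had members on both sides.

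**Figure D1:**
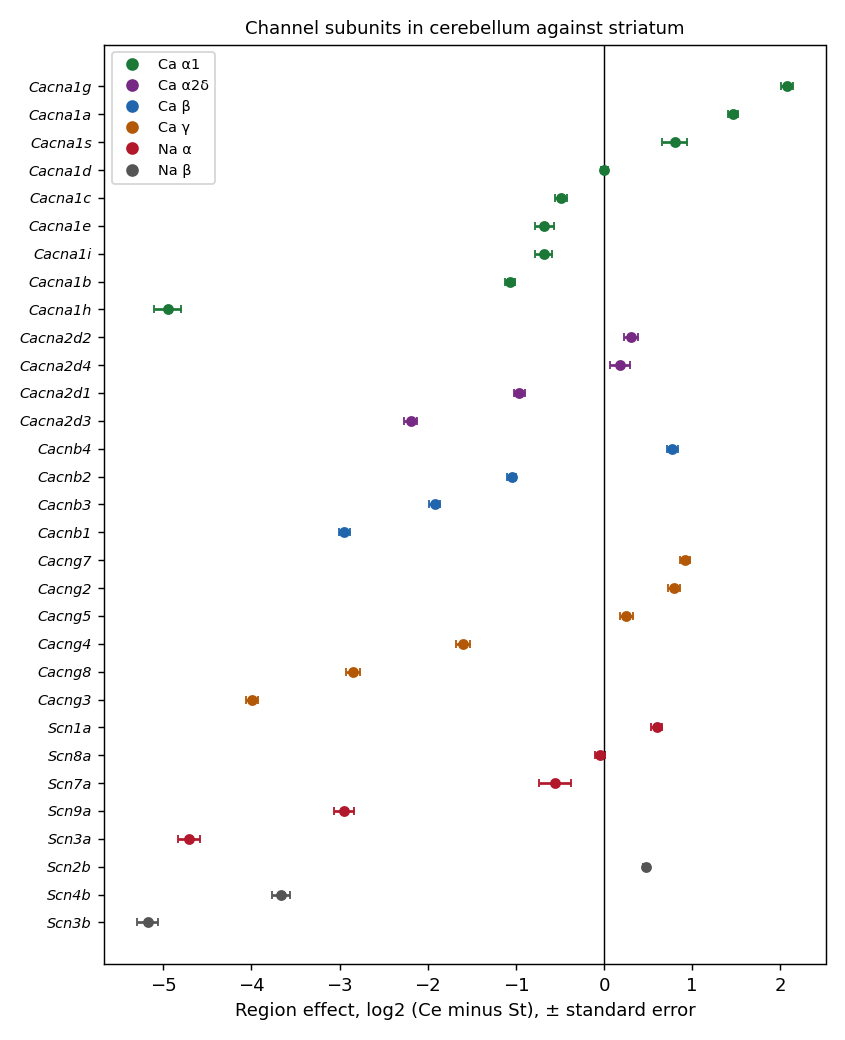
Region effect of 31 of the tested subunits (log2, Ce minus St, n = 8 Ce and 7 St samples), with bars of 1 standard error and colours for the family. Positive values are higher in Ce. Cacna1g at 2.07 and Scn3b at -5.18 mark the ends.

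Among the pore-forming α1 subunits of calcium channels, 3 of the 9 tested were higher in Ce and 5 higher in St. Cacna1g encodes the T-type pore Cav3.1, which opens at low voltage. It had 10931, 12702, 10940.0 and 10954 normalized counts in CeCo and 12203, 13779, 13200.2 and 11019 in CeHi, and 2786, 3359.9, 3234 and 2758 in StCo and 2893, 2268 and 2783 in StHi. Every Ce sample lay above every St sample, with a difference of 2.07 ± 0.07 (adjusted P-value = 1.4e-14). Cacna1a, the P/Q-type pore Cav2.1 that triggers transmitter release, followed at 1.46 ± 0.06 (adjusted P-value = 1.1e-13), with 16289 to 21649 in Ce and 6476 to 7876 in St. Cacna1s, the pore of the skeletal muscle channel, was a scarce transcript in both regions at 83.8 to 127 in Ce and 41.6 to 82.1 in St, a difference of 0.80 ± 0.14 (adjusted P-value = 4.2e-05).

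The T-type pores were split between the regions. Cacna1h, which encodes Cav3.2, had 139.8, 149.8, 183 and 126 in CeCo and 172, 116, 163 and 293 in CeHi, against 4703, 4959, 5255 and 4685 in StCo and 4773, 5583 and 5061 in StHi. The St samples were all above the Ce samples, by -4.95 ± 0.15 (adjusted P-value = 1.8e-13), while the highest Ce value was that of CeHi replicate 3. Cacna1i, the third T-type pore (Cav3.3), was also higher in St at -0.69 ± 0.10 (adjusted P-value = 1.1e-05), but its samples overlapped. The N-type pore Cacna1b differed by -1.07 ± 0.06 (adjusted P-value = 3.0e-11) without overlap. The R-type pore Cacna1e at -0.68 ± 0.11 (adjusted P-value = 3.5e-05) and the L-type pore Cacna1c at -0.49 ± 0.07 (adjusted P-value = 3.6e-06) overlapped between regions. Cacna1d, the other L-type pore of brain, lay at 1915 to 2291 in Ce and 1973 to 2146 in St, and its difference of 0.00 ± 0.04 (adjusted P-value = 1) did not pass. Cacna1f, the retinal L-type pore, stayed below the filter at 2.8 to 8.41.

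The α2δ subunits include the targets of the gabapentinoid drugs, Cacna2d1 and Cacna2d2. Cacna2d3 had 2255, 2928, 2916 and 2260.3 normalized counts in CeCo and 2413, 2009.6, 2347 and 2162 in CeHi, and 10928, 9591, 10308 and 12278 in StCo and 9894, 11744 and 11697 in StHi, so that all St samples were above all Ce samples, by -2.19 ± 0.07 (adjusted P-value = 6.2e-14). Cacna2d1 was higher in St as well, at -0.96 ± 0.06 (adjusted P-value = 2.7e-10), without overlap. Cacna2d2, whose loss causes the ataxia of the ducky mouse, was the one α2δ gene higher in Ce, at 0.31 ± 0.08 (adjusted P-value = 0.0019), with overlapping samples (5046 to 6317 in Ce and 3727 to 5752 in St). Cacna2d4 was scarce in both regions at 81.5 to 153, and its difference of 0.18 ± 0.11 (adjusted P-value = 0.14) did not pass.

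All 4 cytoplasmic β subunits differed between regions. Cacnb4, mutated in the lethargic mouse with ataxia and seizures, was the one higher in Ce, at 0.77 ± 0.06 (adjusted P-value = 3.5e-09), with 20244 to 27426 in Ce and 12273 to 15973 in St. Cacnb1, the β subunit also used by skeletal muscle, showed 553, 671, 625 and 610.0 in CeCo and 637, 511, 518 and 624 in CeHi against 5054, 4427, 4378 and 4773 in StCo and 4133, 4455 and 4771 in StHi. The regions did not overlap and the difference was -2.95 ± 0.06 (adjusted P-value = 3.4e-17). Cacnb3 showed 2109, 2304, 2375 and 2189 in CeCo and 2341, 1849, 2180.4 and 2518 in CeHi, and 9533, 9249, 7994 and 8635 in StCo and 8939.7, 7586 and 7583 in StHi. This gene too was higher in every St sample, by -1.92 ± 0.06 (adjusted P-value = 1.8e-14), and Cacnb2, a β subunit well known from heart, by -1.05 ± 0.05 (adjusted P-value = 4.1e-12).

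Of the 6 γ genes tested, 3 were higher in each region. Cacng3, an AMPA receptor auxiliary protein (TARP), had 203, 219, 247 and 196 in CeCo and 256, 283, 295 and 313 in CeHi, and 4284, 3964, 3424 and 4469 in StCo and 3567, 3945 and 4149 in StHi. The St samples were all far above the Ce samples, by -3.99 ± 0.07 (adjusted P-value = 4.3e-18). Cacng8, another TARP, had 212, 211, 209.9 and 258 in CeCo and 210.2, 216, 289 and 245 in CeHi, and 1453, 1698, 1897 and 1641 in StCo and 1643, 1618 and 1674 in StHi, with no overlap and a difference of -2.85 ± 0.08 (adjusted P-value = 1.2e-15). The TARP Cacng4 was higher in St by -1.60 ± 0.08 (adjusted P-value = 6.2e-12). On the Ce side stood the TARPs Cacng2 (stargazin, mutated in the ataxic stargazer mouse) at 0.79 ± 0.07 (adjusted P-value = 1.0e-08), Cacng7 at 0.92 ± 0.05 (adjusted P-value = 4.6e-11) and Cacng5 at 0.25 ± 0.08 (adjusted P-value = 0.0069), of which Cacng5 alone overlapped between regions. The muscle subunit Cacng1 was not tested and had 0 to 1.71 normalized counts in Ce, at most 2 fragments, and 19.95 to 45.4 in St. Its close relative Cacng6 was at 0 in all 8 Ce samples and at 1.19 to 9.89 in St. A 0 in any 1 sample still allows an expected count of up to 3 fragments, and the 8 together allow less.

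The sodium channel pores ranged from higher in Ce to far higher in St. Scn1a, the pore Nav1.1 prominent in inhibitory neurons, was higher in Ce at 0.60 ± 0.06 (adjusted P-value = 1.3e-07), without overlap. Scn8a, the pore Nav1.6 found at the axon initial segment and in Purkinje cells, lay at 10616 to 14775 in Ce and 12269 to 14293 in St, and its difference of -0.04 ± 0.06 (adjusted P-value = 0.47) did not pass.

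Scn3a, a pore (Nav1.3) best known from embryonic brain, had 174, 176, 172 and 148 in CeCo and 166, 147, 151 and 295 in CeHi, and 4685, 4576, 4208 and 5126 in StCo and 3842, 4784 and 4832 in StHi. It was higher in every St sample by -4.71 ± 0.13 (adjusted P-value = 1.8e-14), and CeHi replicate 3 stood above the other Ce samples. Scn9a, the pore Nav1.7 of pain-sensing neurons, had 75.5, 57.9, 56.3 and 64.1 in CeCo and 69.8, 48.5, 62.1 and 89.8 in CeHi, and 437, 516, 574 and 510.1 in StCo and 464, 544 and 494 in StHi, without overlap and with a difference of -2.95 ± 0.12 (adjusted P-value = 1.6e-13). Scn7a, a sodium-sensing relative that is not gated like the others, was scarce, overlapped between regions and differed by -0.55 ± 0.18 (adjusted P-value = 0.0089). The skeletal muscle pore Scn4a reached at most 2 fragments in any sample. The sensory neuron pores Scn10a and Scn11a were not tested either, with Scn10a at 0 to 1.05 in Ce and 10.97 to 34.4 in St, and Scn11a at 8.44 to 22.2 in Ce and 10.97 to 27.3 in St.

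The sodium channel β subunits were split between the regions as well. Scn3b had 212, 211, 220.1 and 212 in CeCo and 268, 211, 258 and 457 in CeHi, and 9056, 8969, 9334 and 9738 in StCo and 7816, 8929 and 9164 in StHi, so that St was above Ce throughout, by -5.18 ± 0.12 (adjusted P-value = 4.9e-15). Scn4b, a β subunit linked to resurgent current, had 2059.7, 2024, 2218 and 1819 in CeCo and 3305, 3634, 3168 and 2509.9 in CeHi, and 34544, 27828, 26110.1 and 39721 in StCo and 28059, 35128 and 33529.9 in StHi. It was higher in every St sample as well, by -3.67 ± 0.10 (adjusted P-value = 1.6e-14). Scn2b was higher in Ce without overlap, at 0.47 ± 0.03 (adjusted P-value = 5.1e-10).

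Levels of different genes were compared per kilobase of the longest annotated transcript (GENCODE vM21), as the mean ± SD over samples, among the members named here. In CeCo the most abundant of them was Scn2b at 4358 ± 202 per kilobase, followed by Cacnb4 at 3018 ± 223 and Cacna1a at 2575 ± 176. In StCo it was Scn4b at 6433 ± 1259.8, which had rank 14 in CeCo at 407 ± 32.9. Behind it in StCo came Scn2b at 3421 ± 77.8, Cacnb3 at 3238 ± 250.2 and Cacna2d3 at 2916 ± 309, of which consecutive ones have overlapping SD ranges. Of the 5 highest of these members in each group, 5 stayed among the 5 highest in CeHi, and 4 in CeCo, StCo and StHi, when the union of all exons was taken as the length.

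The make-up of each family differed between the regions, with shares given as the mean ± SD over samples. Cacna1a held 47.8% ± 1.45 of the summed α1 level per kilobase in CeCo and 22.4% ± 1.78 in StCo, Cacna1g 25.2% ± 1.44 and 8.84% ± 0.863, and Cacna1h 0.341% ± 0.075 and 14.6% ± 1.09. The α1 family as a whole summed to 5384 ± 350.3 in CeCo and 4094 ± 144 in StCo. Cacnb4 held 69.2% ± 1.3 of the β level in CeCo and 24.8% ± 0.981 in StCo, where Cacnb3 held the largest share at 45.4% ± 1.32. Cacna2d2 held 42.9% ± 1.76 of the α2δ level in CeCo, and Cacna2d3 held 59.7% ± 3.85 of it in StCo. The γ level was mostly Cacng7 in CeCo, at 55.5% ± 2.35, and Cacng3 was its largest part in StCo at 32.9% ± 2.64. Scn2a1, added here to the sodium channel α genes named above, held 47.4% ± 0.917 of their summed level in CeCo and 42.3% ± 1.09 in StCo, ahead of Scn1a in CeCo at 28.6% ± 0.716 and of Scn8a in StCo at 25.8% ± 0.385. Scn4b made up 8.48% ± 0.877 of the summed level of Scn2b, Scn3b and Scn4b in CeCo and 11.4% ± 1.73 in CeHi, against 52.8% ± 4.36 in StCo and 55.1% ± 2.36 in StHi. In the plot of family make-up the region changes the bars far more than the line.

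**Figure D2:**
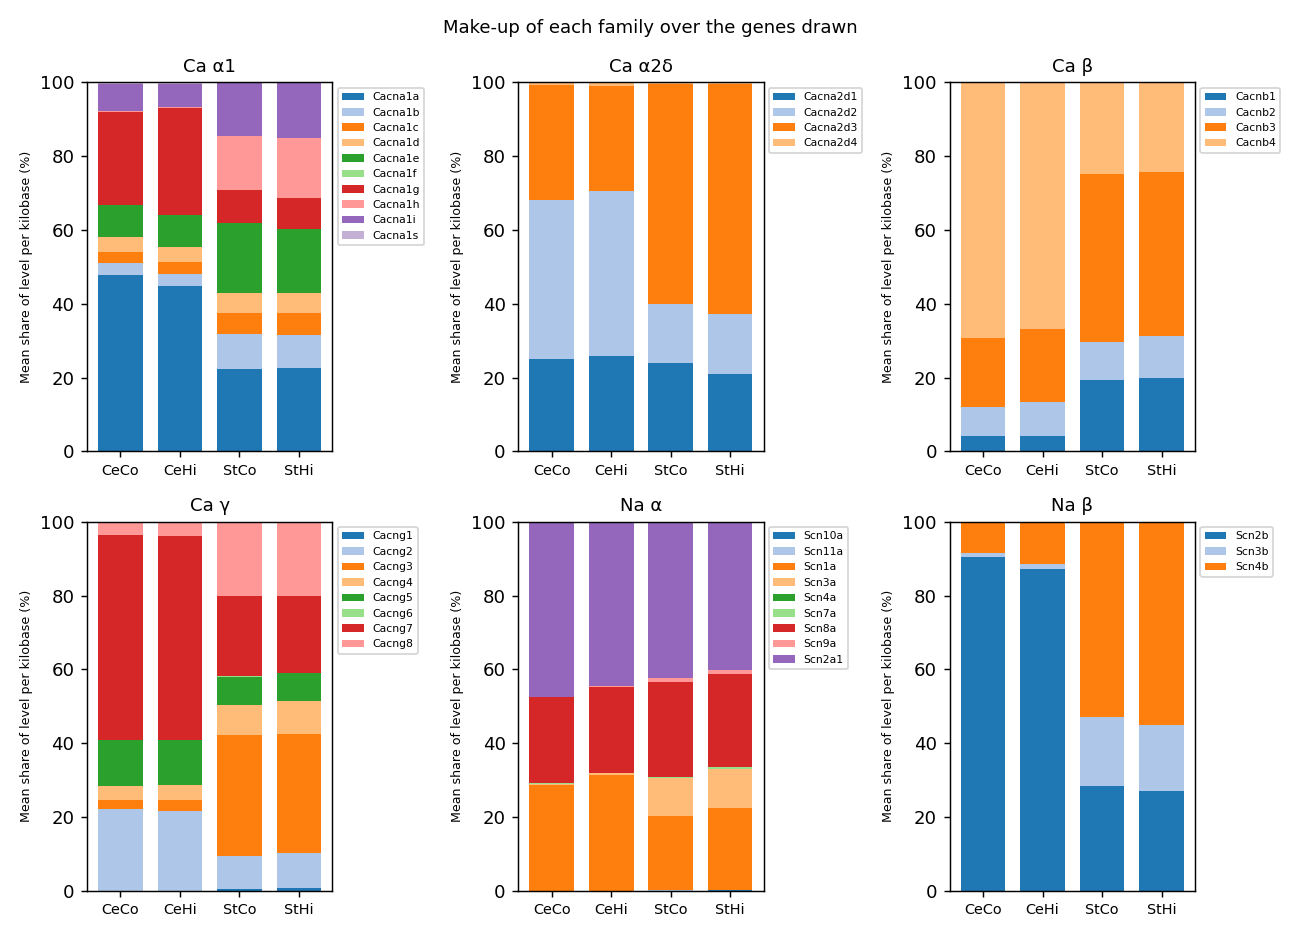
Share of each subunit in the summed level per kilobase of the genes drawn for its family (%, mean over the samples of each group), 1 panel per family and 1 bar per group. The largest part of the Ca β bar is Cacnb4 in Ce and Cacnb3 in St, and Scn4b takes 8.48% of the Na β bar in CeCo and 52.8% in StCo.

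Several members lie side by side in the genome (GRCm38), and neighbours did not always share a direction. On chromosome 2, Scn3a, Scn2a, Scn1a, Scn9a and Scn7a form an array of 1327.8 kb (chr2:65457118-66784914). In its order, the levels per kilobase were 15.3 to 30.8 in Ce and 402 to 536 in St for Scn3a, and 1837 to 2653 and 1655 to 2096 for Scn2a. They were 1323 to 1638 and 844 to 1122 for Scn1a, 4.93 to 9.13 and 44.4 to 58.4 for Scn9a, and 6.82 to 13.95 and 12.1 to 25.9 for Scn7a. Scn3a, Scn9a and Scn7a, which passed as higher in St, thus flank Scn2a and Scn1a, the latter higher in Ce. The regions overlapped for Scn7a and for Scn2a. For Scn2a both the lowest and the highest value were greater in Ce, and its model result is not given here. On chromosome 9, Scn2b (chr9:45117782-45130070) ends 8324 bases before Scn4b (chr9:45138395-45154152) on the same strand, and they differed in opposite directions between regions. The γ genes Cacng7, Cacng8 and Cacng6 (chr7:3332955-3435667) and Cacng1, Cacng4 and Cacng5 (chr11:107703218-107915055) form 2 further arrays, in each of which the tested members differed in both directions. Counting by strand was not stated for these values, so reads of a member and of an antisense gene that overlaps it, such as Gm10684 at Scn2b and Gm44749 at Cacng3, cannot be told apart.

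**Figure D3:**
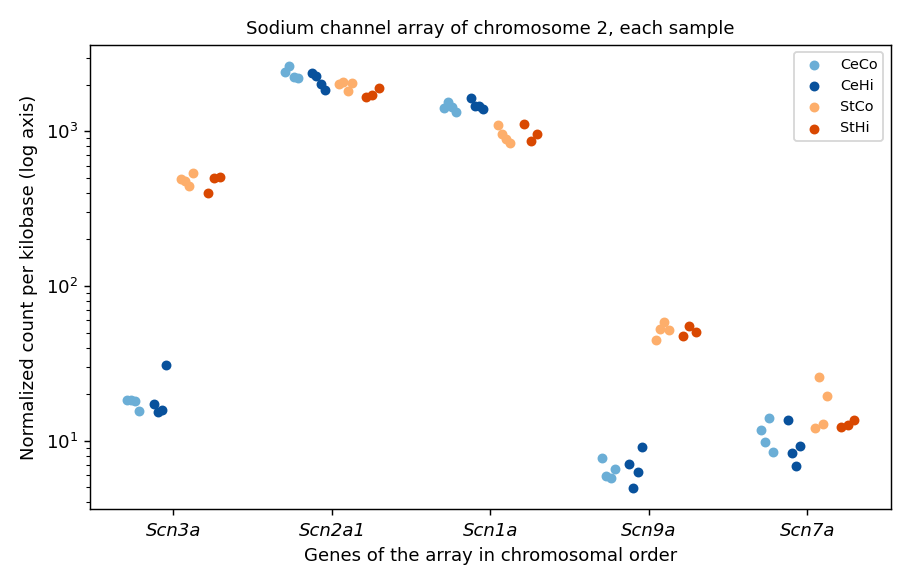
Normalized count per kilobase (log axis) of the 5 sodium channel genes of chromosome 2, in their order along the chromosome, with 1 point per sample and a colour per group. The St samples of Scn3a lie at 402 to 536 and its Ce samples at 15.3 to 30.8, whereas Scn1a is higher in Ce.

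Differences between lines were few and small beside those between regions. In Ce, 2 of the 33 members passed an adjusted P-value of 0.05 in limma, both higher in CeHi, against 5.94% of all genes (2.94% higher and 2.99% lower in Hi). In St, 0 of 33 passed, against 2.66% of all genes (1.49% higher and 1.17% lower in Hi), and 3 members had an unadjusted P-value under 0.05. For the mean of both line effects 0 of 33 passed (8.48% of all genes, 4.34% higher and 4.14% lower in Hi, with 5 members at an unadjusted P-value under 0.05), and for the line-by-region interaction also 0 (0.532% of all genes, 0.256% with a positive and 0.276% with a negative value, with 5 members at an unadjusted P-value under 0.05). The median line effect over the members was 0.00 in Ce and -0.07 in St on the log2 scale.

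Scn4b was the member with the larger line difference in Ce. Its CeHi samples lay at 2509.9 to 3634 normalized counts and its CeCo samples at 1819 to 2218, in the values listed above, so that all 4 CeHi samples exceeded all 4 CeCo samples. The difference was 0.62 ± 0.13 (adjusted P-value = 0.012) in Ce and 0.02 ± 0.14 (adjusted P-value = 0.98) in St, where the lines overlapped. The interaction of 0.60 ± 0.20 (adjusted P-value = 0.26) did not pass, so a difference between the regions in the line effect was not shown. In CeHi its level was still far under that of St. Markers of medium spiny neurons, in which Scn4b is abundant, moved with line in Ce as well: as a percent of the mean over St samples the sum of 9 of the 10 listed (1 symbol was not found, none was at 0) stood at 5.83%, 5.63%, 5.64% and 5.87% in CeCo and 6.11%, 6.46%, 6.21% and 5.81% in CeHi, where CeHi replicate 3, the lowest, lay inside the CeCo range and also had the lowest Scn4b value of its group. Single markers of the list moved differently. Penk was higher in CeHi without overlap, at 3132 to 3808 in CeCo and 4523 to 4762 in CeHi against 36042 to 56722 in St, and so was Rgs9, at 124 to 272 and 273 to 361 against 17072 to 25276. Pde10a was lower in CeHi without overlap, at 5184 to 6147 and 3567 to 5162 against 39758 to 59198. The receptor gene Drd1a overlapped, at 16.2 to 27.96 and 17.6 to 34.9 against 8342 to 12398, as did the other 5 listed. The part of these markers in the Scn4b difference was not tested. With limma on the 10 samples whose values were accepted as whole fragments (3 CeCo, 3 CeHi), Scn4b did not pass (0.56, adjusted P-value = 0.13), nor with edgeR (0.58, adjusted P-value = 0.11), but it did with DESeq2 (0.58, adjusted P-value = 0.0064).

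Cacng3 was the other member called in Ce. The CeHi samples lay at 256 to 313 and the CeCo samples at 196 to 247, again without overlap, a difference of 0.40 ± 0.09 (adjusted P-value = 0.016). In St the lines overlapped and the difference was -0.06 ± 0.10 (adjusted P-value = 0.89), and the interaction of 0.46 ± 0.14 (adjusted P-value = 0.2) did not pass. The call in Ce was lost without CeCo replicate 3 (0.36, adjusted P-value = 0.051) and on the 10 samples above (adjusted P-value = 0.2 in limma, 0.24 in edgeR and 0.16 in DESeq2).

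**Figure D4:**
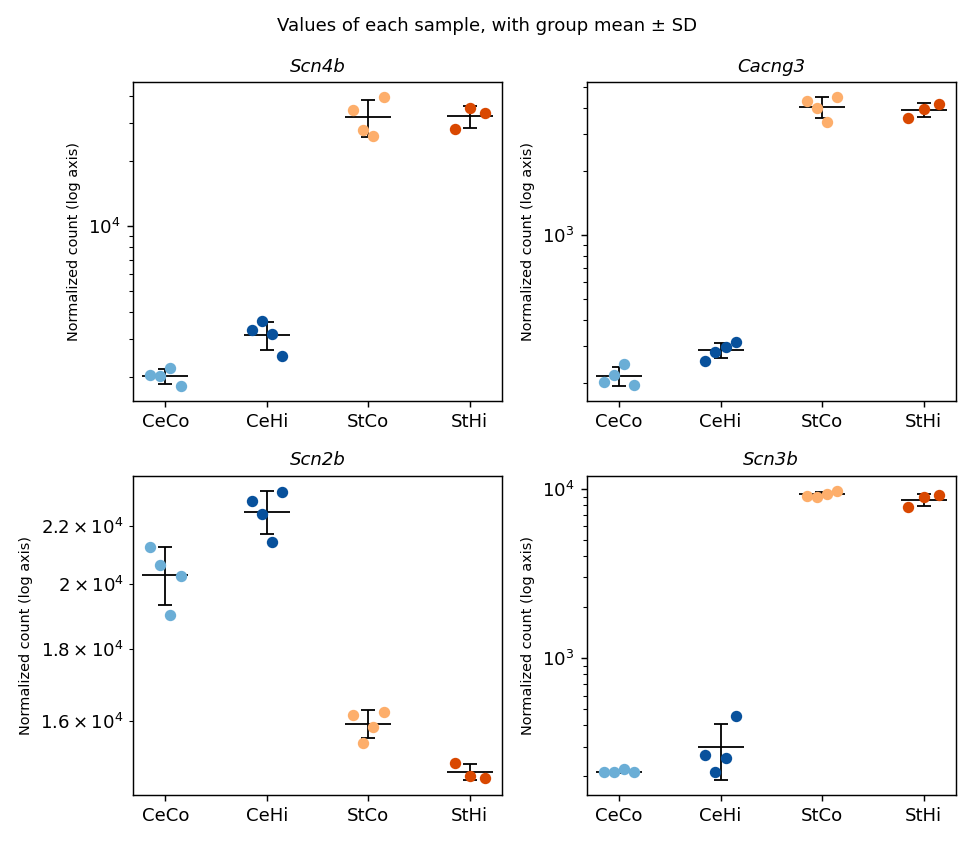
Normalized counts (log axes with a different range in each panel) of Scn4b, Cacng3, Scn2b and Scn3b in every sample, 1 point each, with the group mean and SD in black. For Scn4b and Cacng3 the CeHi points lie above the CeCo points while both lie far under St, and for Scn3b 1 CeHi sample at 457 stands apart.

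Groups that did not overlap were found for 4 members in Ce and 3 in St, of 33, against 13.3% and 13.1% of all genes. In Ce these were Scn4b, Cacng3, Scn2b and Cacnb2, each higher in CeHi. Cacnb2 lay at 1785, 1798, 1603 and 1664 in CeCo and 1888, 2089.8, 1897 and 1866 in CeHi and its difference of 0.17 ± 0.07 (adjusted P-value = 0.18) did not pass. In St, Cacna2d4 was higher in StHi, at 81.5, 106, 98.7 and 82.3 in StCo and 128, 109 and 122 in StHi, a difference of 0.38 ± 0.16 (adjusted P-value = 0.3). Cacna1b was lower there, at 3635, 4021, 3760.3 and 3512 in StCo and 3193, 3343 and 3477 in StHi, a difference of -0.17 ± 0.09 (adjusted P-value = 0.44).

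Scn2b, a β subunit held to the pore by a disulfide bond, was without overlap in both regions but in opposite directions. It had 21242, 20636, 19009.5 and 20279.5 normalized counts in CeCo and 22912, 22412, 21419.8 and 23229 in CeHi, and 16168, 15451, 15851 and 16249 in StCo and 14953, 14648 and 14599 in StHi. The Hi samples were the higher ones in Ce, by 0.14 ± 0.05 (adjusted P-value = 0.075), and the lower ones in St, by -0.12 ± 0.05 (adjusted P-value = 0.26). The interaction of 0.26 ± 0.07 (adjusted P-value = 0.1) did not pass. Scn3b lay higher in 3 of the 4 CeHi samples than in any CeCo sample, and its difference of 0.41 ± 0.16 (adjusted P-value = 0.17) did not pass. CeHi replicate 3, which held its highest Ce value, also had the highest Ce values of Tac1 (189 against 17.8 to 56.3 in the other 7 samples), Drd2 (109 against 18.7 to 33.6) and Slc17a6 (2267 against 654 to 1190.3), genes of striatal and of other glutamatergic neurons. Their part in the Scn3b, Scn3a and Cacna1h values of that sample was not tested. The remaining members named here had line effects between -0.30 (Cacna1i) and 0.24 (Cacna2d4) in Ce.

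**Figure D5:**
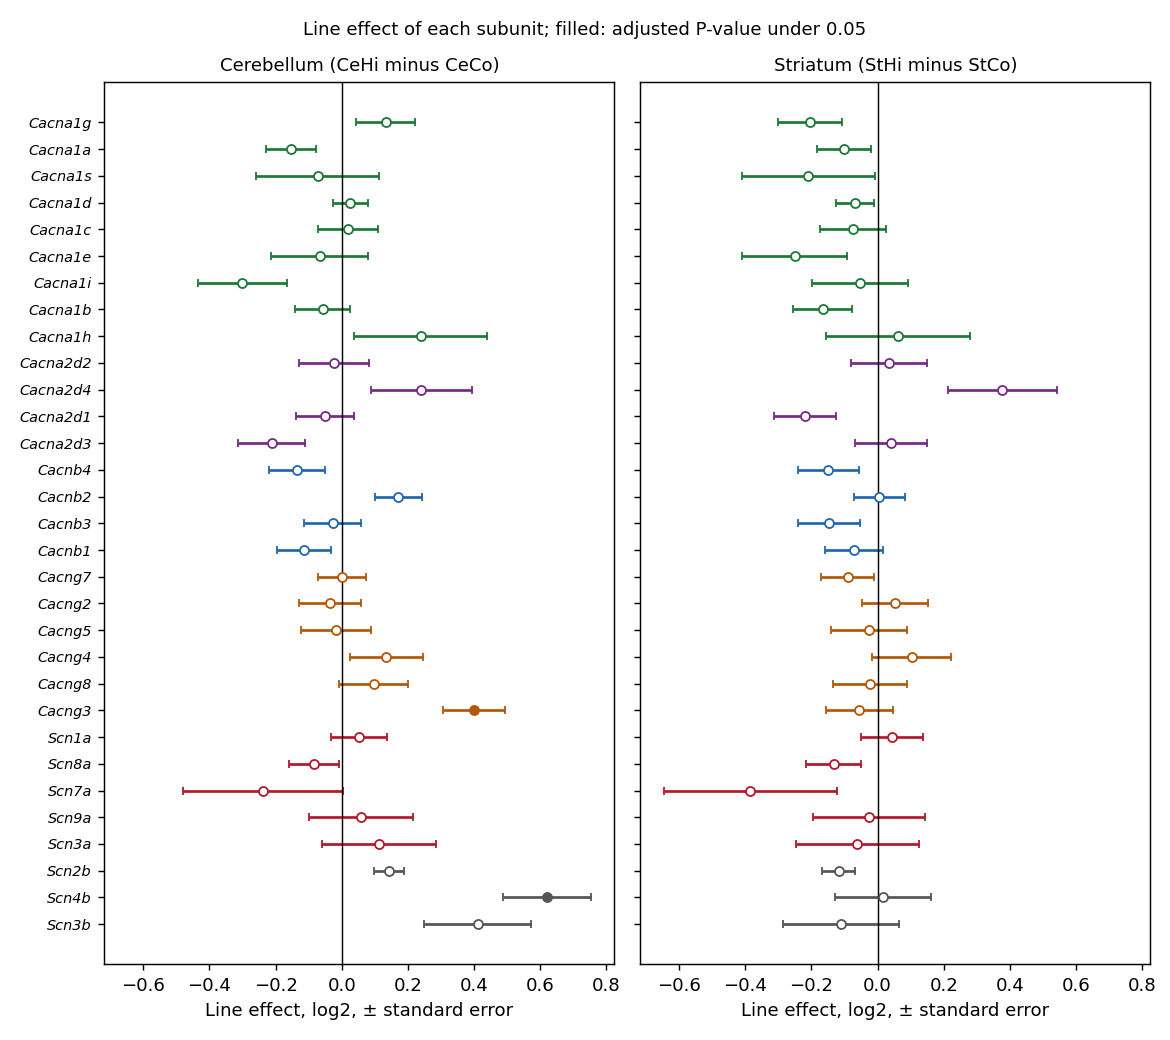
Line effect (log2, Hi minus Co) of 31 of the tested members in Ce and in St, with bars of 1 standard error. Filled points passed an adjusted P-value of 0.05, which were Scn4b at 0.62 and Cacng3 at 0.40 in Ce and none in St.

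Genes whose proteins act with these channels were taken from lists and described in the same way. The partner list held anchors, active zone proteins, modulators and release sensors, and also the channel genes Scn2a1, Nalcn, Catsper1 and Catsper2. Of 35 tested genes of this list, 31 differed between regions, 14 higher in Ce and 17 higher in St, with a median log2 difference of -0.14, beside 80.2% of all genes called and a median of 0.01. The largest region effects were those of Rimbp2, an active zone protein that binds calcium channels, at -3.99 ± 0.08 (adjusted P-value = 1.6e-17), Syt2, a fast calcium sensor of release, at 2.70 ± 0.07 (adjusted P-value = 4.3e-16), and the active zone protein Erc2 at -2.67 ± 0.04 (adjusted P-value = 2.7e-18). In Ce 2 partners differed between lines, where 5.94% of all genes did. Gem, a small GTPase that binds β subunits and dampens calcium channels, had 12 ± 4.06 normalized counts in CeCo (n = 4) and 23.5 ± 3.23 in CeHi (n = 4), a difference of 0.96 ± 0.24 (adjusted P-value = 0.027), and Erc2 differed by -0.22 ± 0.06 (adjusted P-value = 0.037). Both also passed for the mean line effect, where 8.48% of all genes did, Gem at 0.71 ± 0.18 (adjusted P-value = 0.02) and Erc2 at -0.16 ± 0.04 (adjusted P-value = 0.034). None passed in St alone or for the interaction (6 unadjusted P-values under 0.05 in each), where 2.66% and 0.532% of all genes did. Gem stayed under a CPM of 1 in Ce, so it entered the test through its St samples, and its Ce call rests on few fragments.

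Of 26 tested genes of calcium stores, extrusion and buffering, 24 differed between regions, 11 higher in Ce and 13 higher in St, with a median of -0.11, again beside 80.2% of all genes. Atp2a3, a pump that fills stores, at 5.67 ± 0.06 (adjusted P-value = 1.8e-20), the calcium buffer Pvalb at 4.47 ± 0.14 (adjusted P-value = 1.1e-12) and the exchanger Slc24a4 at -3.55 ± 0.16 (adjusted P-value = 6.2e-12) differed most. The 4 line calls in Ce (5.94% of all genes were called) were those of the store release channel Ryr3, higher in CeHi at 0.46 ± 0.13 (adjusted P-value = 0.048), and of 3 genes lower in CeHi, namely the release channel Itpr3 at -0.66 ± 0.12 (adjusted P-value = 0.0031) and the sodium-calcium exchangers Slc8a2 at -0.35 ± 0.07 (adjusted P-value = 0.0038) and Slc8a3 at -0.24 ± 0.07 (adjusted P-value = 0.042). In St the store-operated channel Orai2 fell from 4219 ± 204 in StCo (n = 4) to 2950.3 ± 79.9 in StHi (n = 3), by -0.52 ± 0.06 (adjusted P-value = 1.9e-05), and Slc8a2 differed by -0.29 ± 0.07 (adjusted P-value = 0.038), in a comparison with 2.66% of all genes called. Orai2 was the one gene of the list with an interaction that passed, at 0.46 ± 0.08 (adjusted P-value = 0.0084), beside 0.532% of all genes. The mean line effect passed for Itpr3, Slc8a2, Slc8a3 and Orai2, all lower in Hi, at -0.36, -0.32, -0.18 and -0.29, beside 8.48% of all genes (4.14% lower in Hi).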

How the data were processed

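RNA-seq of 15 samples was used (4 CeCo, 4 CeHi, 4 StCo and 3 StHi), grouped by their deposited labels. The authors aligned paired-end reads with Tophat2 to GRCm38 and normalized gene values for library size with Cuffnorm 2.2.1. The deposited values are a signal, named as fragments per kilobase, that proved to be fragment counts divided by 1 factor per sample and not by length: 99.3% to 99.5% of low values were whole multiples of 1 fragment (tolerance 0.01), and a column check accepted this for 10 samples. Precision is that of counting, and intervals between libraries rest on 3 or 4 samples. The labels do not say whether samples came from separate mice in both regions.

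Library sizes were adjusted by TMM with edgeR 4.0.16 (factors 0.993 to 1.01) and values taken as log2(value + 1), which understates changes of low genes. Genes that reached a CPM of 1 in 3 samples were fitted by group means with limma 3.58.1 (R 4.3.3, trended and robust moderation), and Benjamini-Hochberg adjustment covered all 15213 genes. Contrasts were Ce minus St, Hi minus Co in each region, their mean and their difference (5 in all). On simulated data for the Ce line effect (15213 genes, 200 changed by a log2 of 1), 98% were recovered and 9.26% of calls were false. The members and the gene lists were chosen with earlier results of these data known. Of the 39 members, 37 are named and 2 are not reported here, though both stay in the counts of members. Values of every sample are given for 11 of the 12 members with the largest region effects and those that passed for line, and of each partner list the 3 largest region effects and all line calls. Drd1 was found under the symbol Drd1a. Positions and lengths are from GENCODE vM21, start regions from RefSeq. Figures were drawn with matplotlib 3.10.9. edgeR and DESeq2 1.42.0 tests of fragments, and other settings, were alternatives.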

Additional observations from a re-analysis of the deposited data

Results flagged for a closer look

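In 99 groups of values of the 33 tested members (CeCo, CeHi and StCo, each of 4 samples), 7 had a highest or lowest sample far from the others by Dixon's criterion, and chance gives this for about 5% of groups. The values are normalized counts. Scn3a had 294.845 in CeHi replicate 3, where the nearest CeHi sample had 165.656, and 147.837 in CeCo replicate 3, where the nearest CeCo sample had 171.511. CeHi replicate 3 was also the highest Ce sample for Scn3b and Cacna1h and for the markers Tac1, Drd2 and Slc17a6, whose part was not tested. Scn3b had 220.148 in CeCo replicate 2, with the nearest at 211.959, in a group of narrow spread. Cacna1g stood at 12701.7 in CeCo replicate 1 (nearest 10954.2), Cacnb2 at 2089.75 in CeHi replicate 1 (nearest 1896.98) and Cacng8 at 258.269 in CeCo replicate 3 (nearest 211.561). Scn8a was low in StCo replicate 2 at 12925.4 (nearest 14211.8).

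Scn2b was singled out because all Hi samples were above all Co samples in Ce and below them in St. Its interaction was 0.26 on the log2 scale (standard error 0.07, unadjusted P-value = 0.0011) and did not pass adjustment over all genes in limma (adjusted P-value = 0.1).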

How the results depend on the processing

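Region effects of the 11 members listed by sample passed under every alternative run and with each sample left out, and the members higher in Ce numbered 9 to 11 and those higher in St 18 to 22 over the alternatives. Scaling did not change either number. The line calls were less stable. Members higher in CeHi numbered 2, but 0 with limma and 0 with edgeR on the 10 samples accepted as whole fragments, 1 with DESeq2 on them (Scn4b), and 1 to 3 with samples left out in turn: Cacng3 was lost without CeCo replicate 3, and Scn3b was added without CeHi replicate 1 (0.56, adjusted P-value = 0.04 in limma). Fewer samples entered these fits. Members lower in CeHi numbered 0 to 1, the 1 being Cacna1i without CeCo replicate 2 (-0.44, adjusted P-value = 0.023). For the mean line effect 1 member passed with sample quality weights (Scn4b, 0.36, adjusted P-value = 0.011) and 0 to 1 with samples left out, which was Scn4b without CeHi replicate 3, StCo replicate 3 or StHi replicate 0 and Cacna2d4 without CeHi replicate 1. Members whose lines did not overlap numbered 4 to 7 in Ce (7 without CeHi replicate 1) and 3 to 8 in St (8 without StHi replicate 0, 6 without StCo replicate 2, and 5 without StCo replicate 0 or without StHi replicate 2). Scn4b in Ce ranged from 0.55 to 0.73 on the log2 scale with samples left out and from 0.56 to 0.68 (adjusted P-value 0.0016 to 0.13) over other settings, and Cacng3 from 0.36 to 0.47 and from 0.33 to 0.41 (adjusted P-value 0.012 to 0.24). In all, 0 results were reversed.

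Same-numbered Ce and St samples had residual correlations of 0.171 to 0.278 in the 4 Co pairs, all above 0.1, and of -0.0751 to 0.0513 in the 3 Hi pairs. Since this did not hold for every pair, the main comparison has no block. A StHi sample was removed, so the Hi numbers may not match between regions, and the low Hi values do not show that pairing is absent. With the replicate number as a block, Scn4b (0.62, adjusted P-value = 0.038) and Cacng3 (0.40, adjusted P-value = 0.026) still passed in Ce, the members higher in Ce numbered 11 and those higher in St 19. This block joins same-numbered samples of both lines, so it does not model pairs of Ce and St samples within a line, and such a fit was not run. The planned count tests of all 15 samples were not run, because whole fragments were accepted for 10. The fits on these 10 samples were added after the data were seen, and StHi held 1 sample in them, assumed to vary like the other groups. The 6 members not tested stayed under the CPM filter. Cacng6 had 0 fragments in every Ce sample, and a 0 in any 1 sample still allows an expected count of up to 3 fragments.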
